A study of Mus musculus with 8 samples.

Results

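The genes described here encode the ligands and receptors of 3 axon guidance systems: the ephrins and Eph receptors, the semaphorins with their plexin and neuropilin receptors, and the Slits with their Robo receptors. They were taken by symbol from the deposited count table, which gave 61 of its 24537 genes: 5 ephrin-A and 3 ephrin-B ligands, 9 EphA and 5 EphB receptors, 20 semaphorins, 9 plexins, 2 neuropilins, 3 Slits, 4 Robos and 1 antisense RNA, Plxna4os1, whose symbol also begins like a plexin's. RNA came from EpCAM-positive cells sorted from pancreatic tumours of 8 mice and was sequenced as 1 library per mouse. All mice were of strain FVB/NJ, carried Tp53f/f, Rosa26LSL-Luc (a luciferase reporter) and Pdx1-Cre among their alleles, and received gemcitabine, a cytotoxic nucleoside analogue, at 50 mg/kg on days 1 and 4 from an age of 42 to 43 days. In addition, 4 mice received control IgG and 4 an antibody against the cytokine LIF, each at 25 mg/kg on days 1, 3 and 5, and tumours were collected on day 6. Pdx1-Cre acts in cells of the pancreatic lineage, so loss of p53 and the reporter are directed by design to that lineage. The sources used here describe no arm without gemcitabine and no healthy pancreas.

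Ephrins are ligands fixed to the cell surface, through a lipid anchor in the A class and a transmembrane stretch in the B class, and they bind Eph receptor tyrosine kinases on the neighbouring cell, so that signals pass into both cells. Semaphorins are secreted or membrane-bound and act through plexins, which regulate small GTPases in the cell, and the secreted class 3 members mostly need a neuropilin as the binding subunit. Slits are secreted and repel cells that carry Robo receptors. Outside the nervous system these genes guide vessels and immune cells and set contacts between epithelial cells, and genes of these pathways are recurrently altered in pancreatic ductal cancer.

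Between 15135457 and 18972281 reads per library were counted in genes. Levels are given as CPM, counts of a gene brought to a common library size by TMM scaling over the tested genes, with libraries named by arm and mouse number and always listed in the order IgG_203, IgG_343, IgG_345 and IgG_393 for IgG and antiLIF_227, antiLIF_310, antiLIF_354 and antiLIF_391 for anti-LIF. FPKM, as deposited, divides by transcript length and by the library total without TMM scaling. It is used wherever levels of different genes are set side by side. Summed over a subfamily, anti-LIF over IgG was lower in FPKM than in CPM, for example 1.32 and 1.44 for plexins and 0.387 and 0.440 for ephrin-A. Fold changes are log2 of anti-LIF over IgG with their standard error (SE), and a gene was called where the adjusted p of edgeR's quasi-likelihood test was under 0.05. The sort marker Epcam, which encodes EpCAM, was at 479 to 664 CPM with IgG and at 194 to 353 CPM with anti-LIF (log2 fold change -0.91, SE 0.20, adjusted p = 0.0102). The summed level of 25 epithelial markers was 6636 to 7734 CPM with IgG and 2551 to 4354 CPM with anti-LIF, and that of 25 myeloid markers was 19203 to 24136 CPM and 34557 to 61865 CPM, the highest in antiLIF_227. In bulk RNA, fewer cells of a type and less RNA per cell cannot be told apart. How far these shifts in marker level contribute to the differences below was not tested.

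Of the 61 genes, 52 had enough counts to be tested, 9 were called higher with anti-LIF and 18 were called lower. Together 51.9% of the tested axon guidance genes were called, beside 32.2% of all 14711 tested genes, of which 15.7% were higher and 16.5% were lower. The median log2 fold change was -0.59 over the tested axon guidance genes and -0.01 over all tested genes. CPM of the arms did not overlap for 7 genes on the higher side and 19 on the lower, beside 35.7% of all tested genes in either direction. Among the ephrins and Eph receptors 0 were called higher and 10 lower by edgeR (0 and 12 at an unadjusted p under 0.05, and 0 and 11 with DESeq2). Plexins and neuropilins gave 6 higher and 2 lower, and semaphorins 2 higher and 6 lower. Slits and Robos gave 0 calls (0 higher and 2 lower at an unadjusted p under 0.05, and 0 and 1 with DESeq2). The antisense RNA made the 9th higher call. Of the 25 tested genes without a call, 6 had a positive and 19 a negative fold change. Efna3 and Sema3g passed the filter on low counts through the IgG arm alone and Efna2 through the anti-LIF arm alone, and Robo4 passed with 3 IgG and 1 anti-LIF library at the minimum, so the counts over tested genes do not describe every gene of these families.

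**Figure D1:**
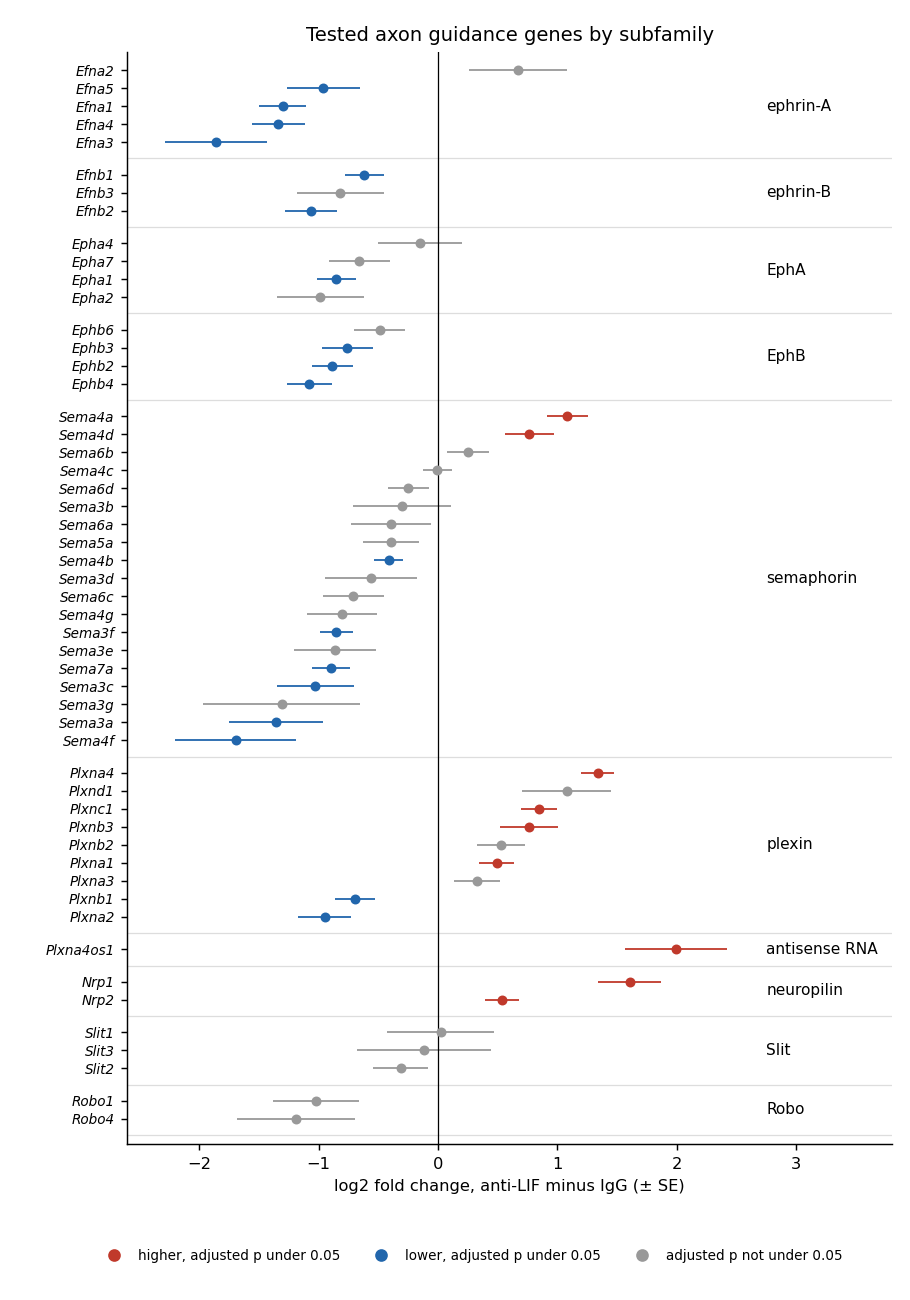
Log2 fold change (x axis, anti-LIF minus IgG) of the 52 tested genes, grouped by subfamily; points are edgeR estimates under TMM scaling and bars are ± SE (n = 4 libraries an arm). All 10 coloured points among ephrins and Eph receptors lie below 0, and 6 of the 8 coloured plexins and neuropilins lie above 0. Once libraries are scaled to epithelial markers, 5 of the 10 (Efna5, Efnb1, Epha1, Ephb2, Ephb3) have estimates above 0, none of them called.

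The directions hold relative to the total mRNA of the sorted cells. When each library was scaled to its summed epithelial markers instead, the median of all tested genes moved to 1.05, 21 axon guidance genes were called higher and 0 lower (edgeR; 23 higher and 1 lower at an unadjusted p under 0.05). Relative to that median of all genes, the 18 genes called lower under TMM scaling lay between 0.41 (Sema4b) and 1.92 (Efna3) below it, and the 9 called higher between 0.56 (Plxna1) and 2.10 (Plxna4os1) above it, as a change of scaling shifts all genes by about the same amount. In the ratio of FPKM to that of Epcam, IgG and anti-LIF libraries overlapped for each of the 7 genes examined: Efna1, Efnb2, Ephb4, Epha2, Sema3f, Sema7a and Plxnb1. These were chosen after the values were seen, and all 7 had a negative fold change. No gene that rose, and not every gene called lower, was put to this ratio. For Efna1 the overlap rested on antiLIF_310 (0.0830) alone. With 4 libraries an arm, overlap does not show that a difference is absent. With IgG_393 and antiLIF_227 both left out, a choice made after seeing the data, 7 genes were called higher and 13 lower.

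Among the ephrin-A ligands, 4 of 5 were called lower with anti-LIF, including Efna3, which passed the filter only through the arm where it was high. Efna1, Efna3 and Efna4 lie beside each other on chromosome 3, on the minus strand of mm10: Efna1 at chr3:89271730-89279645, Efna3 at chr3:89314951-89322879 and Efna4 at chr3:89333393-89338028, with 35305 and 10513 bases between neighbours. Because Efna1 and Efna4, which were measured well in both arms, were lower, the 250 bases upstream of the RefSeq transcript starts of the 3 neighbours (GRCm38.p6, gene strand, 5′ to 3′) are shown. Nrp1, the most strongly raised receptor gene here, is added for contrast. The windows are chr3:89279646-89279895 for Efna1, chr3:89322940-89323189 for Efna3, chr3:89338029-89338278 for Efna4 and chr8:128358823-128359072 (plus strand) for Nrp1. Each ends at the start of the counted transcript, except that of Efna3, which ends 60 bases before it. Capitals mark matches on either strand to 4 short motifs: TTCNNNGAA (STAT), GGAATG (TEAD), TGANTCA (AP-1) and GAGGAA (the core bound by PU.1); no matches overlap.
Efna1: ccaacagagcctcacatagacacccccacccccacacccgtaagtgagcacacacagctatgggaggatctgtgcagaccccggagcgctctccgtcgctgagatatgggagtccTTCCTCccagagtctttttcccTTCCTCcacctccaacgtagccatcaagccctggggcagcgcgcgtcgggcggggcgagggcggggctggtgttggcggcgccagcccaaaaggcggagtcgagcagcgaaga
Efna3: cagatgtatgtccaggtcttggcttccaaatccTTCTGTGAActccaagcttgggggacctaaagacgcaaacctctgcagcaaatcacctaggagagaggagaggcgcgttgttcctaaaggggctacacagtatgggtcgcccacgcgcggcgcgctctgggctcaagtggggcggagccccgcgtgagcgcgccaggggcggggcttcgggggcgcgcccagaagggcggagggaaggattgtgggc
Efna4: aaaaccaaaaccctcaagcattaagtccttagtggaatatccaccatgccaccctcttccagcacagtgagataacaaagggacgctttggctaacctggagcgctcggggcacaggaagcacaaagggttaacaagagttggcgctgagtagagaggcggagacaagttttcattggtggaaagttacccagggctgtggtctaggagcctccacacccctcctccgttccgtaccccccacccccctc
Nrp1: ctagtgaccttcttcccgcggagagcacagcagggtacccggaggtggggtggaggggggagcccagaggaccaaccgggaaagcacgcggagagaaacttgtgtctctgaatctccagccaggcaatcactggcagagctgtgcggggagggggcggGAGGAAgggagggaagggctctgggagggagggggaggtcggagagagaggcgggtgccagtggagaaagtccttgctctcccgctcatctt
The Efna1 window held the PU.1 core at 2 places, the Efna3 window 1 STAT match, the Efna4 window none of the 4 motifs and the Nrp1 window 1 PU.1 core. Among 32817 RefSeq windows of the same length, 7.01% held the STAT motif, 12.6% the TEAD motif, 6.75% the AP-1 motif and 23.3% the PU.1 core. None of the 4 motifs was found in more than 1 of the windows of Efna1, Efna3 and Efna4, whose GC content was 64.4%, 63.6% and 54.4%. A window was found for 53 of the 61 genes, but not for Plxna1, Plxna4 and Plxna4os1. Among called genes it lay furthest from the counted start for Sema4d (37064 bases), Sema3a (2525), Efnb2 (469) and Plxnc1 (267). Of the 17 windows of genes called lower, 1 held the STAT motif, 3 the TEAD motif, 0 the AP-1 motif and 3 the PU.1 core, and of the 6 windows of genes called higher, 3 held the PU.1 core and 0 any of the others. A match in these letters is a description and shows no bound site.

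Efna1, the lipid-anchored ligand best known as partner of EphA2, was at 35.0, 36.7, 38.9 and 35.6 CPM in the IgG libraries and at 10.7, 19.5, 11.4 and 17.8 CPM in the anti-LIF libraries. The IgG libraries lay close together, and every anti-LIF library lay below all of them (log2 fold change -1.30, SE 0.19, adjusted p = 0.00422). Efna4, another EphA ligand, was at 25.3, 28.9, 24.2 and 21.2 CPM with IgG and 6.96, 11.1, 7.72 and 13.7 CPM with anti-LIF. Its arms did not overlap either (log2 fold change -1.34, SE 0.22, adjusted p = 0.00485). Efna3 between them went from 1.26 ± 0.496 to 0.344 ± 0.156 CPM (mean ± SD, n = 4), with a log2 fold change of -1.86 (SE 0.42, adjusted p = 0.0128), at a level near the limit of the filter and on 21 reads in all over the anti-LIF libraries. Efna5, which lies on another chromosome, fell from 22.8 ± 3.14 to 11.7 ± 4.81 CPM (adjusted p = 0.0408). Its call was lost without any of IgG_203, IgG_343, IgG_345 or IgG_393 or antiLIF_310 or antiLIF_354, with an adjusted p of up to 0.102. Efna2 stayed near 1 CPM in both arms (0.757 ± 0.449 and 1.20 ± 0.170 CPM, adjusted p = 0.238).

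Summed over the class, ephrin-A FPKM was 36.7 to 40.1 with IgG and 9.08 to 19.3 with anti-LIF. The shares of the main members overlapped between arms. Efna1 supplied 50.5% to 57.3% of the sum with IgG and 48.2% to 56.4% with anti-LIF, and Efna4 30.8% to 36.9% and 29.8% to 34.8%. Under scaling to epithelial markers, Efna1, Efna3 and Efna4 kept a negative fold change (-0.31, -0.87 and -0.35) that was not called, and Efna5 went to 0.0033.

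Both well expressed transmembrane ephrins fell. Efnb2, the ephrin-B2 ligand known from arterial endothelium and also made by epithelia, was at 115, 109, 75.2 and 120.3 CPM with IgG and 34.0, 62.7, 44.6 and 59.3 CPM with anti-LIF. IgG_345 was the lowest of the IgG arm and still lay above every anti-LIF library (log2 fold change -1.06, SE 0.21, adjusted p = 0.0084). Efnb1, an X-linked ligand of EphB receptors, fell from 59.5 ± 12.2 to 38.8 ± 5.78 CPM (log2 fold change -0.62, SE 0.16, adjusted p = 0.022), a call lost without IgG_393 or antiLIF_354 (adjusted p up to 0.0605). Under scaling to epithelial markers Efnb1 turned to 0.41 and Efnb2 stayed at -0.06, neither of them called. Efnb3 was at 2.03 ± 0.850 and 1.15 ± 0.330 CPM and was not called (adjusted p = 0.118).

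Of the EphA receptors, 4 of 9 were measurable, and in FPKM Epha2 held 77.5% to 91.2% of the class with IgG and 78.5% to 86.3% with anti-LIF. Epha2, an epithelial receptor tyrosine kinase bound by ephrin-A1, varied widely: 249.5, 170.4, 132 and 378 CPM with IgG and 67.6, 163, 99.98 and 139 CPM with anti-LIF. Its arms overlapped, and the difference was not called by edgeR (log2 fold change -0.99, SE 0.36, adjusted p = 0.0659). It was called by DESeq2 (adjusted p = 0.0239) and without IgG_345 (adjusted p = 0.0413). Without IgG_393, the highest library, the log2 fold change was -0.65 (adjusted p = 0.168). Epha1, found in many epithelia, had less spread, at 24.5, 29.5, 26.9 and 19.7 CPM with IgG and 11.1, 15.7, 15.8 and 13.2 CPM with anti-LIF. It fell with no overlap between arms (log2 fold change -0.85, SE 0.16, adjusted p = 0.00704). Epha7 did not overlap between arms either, at 2.58 to 4.12 CPM and 1.34 to 2.47 CPM, but missed the threshold (adjusted p = 0.0769), and Epha4 overlapped (log2 fold change -0.15, adjusted p = 0.768). Epha3, Epha5, Epha6, Epha8 and Epha10 were too low to test, and Epha6 had no read in any library.

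Of the EphB receptors, 3 of 5 were called lower. Ephb4, the partner of ephrin-B2, was at 106, 111, 82.6 and 93.2 CPM with IgG and 30.6, 51.5, 46.4 and 57.7 CPM with anti-LIF (log2 fold change -1.08, SE 0.19, adjusted p = 0.0054). Ephb2, a receptor known for sorting cells along the intestinal crypt, was at 67.7, 91.1, 73.0 and 62.3 CPM with IgG and 35.4, 36.8, 33.8 and 53.2 CPM with anti-LIF (log2 fold change -0.89, SE 0.17, adjusted p = 0.00741). Neither gene overlapped between arms, although antiLIF_391 stood well above the rest of its arm for Ephb2. Ephb3, which acts with Ephb2 in the crypt, fell from 22.1 ± 1.76 to 13.1 ± 4.24 CPM (log2 fold change -0.76, SE 0.22, adjusted p = 0.0282). That call was lost without IgG_203, IgG_345 or IgG_393 or antiLIF_354 (adjusted p up to 0.0696). Ephb6, a receptor whose kinase domain is inactive, was at 15.9 ± 4.46 and 11.4 ± 1.14 CPM and was not called (adjusted p = 0.113), and Ephb1 was too low to test. Under scaling to epithelial markers the estimates of Epha1, Ephb2 and Ephb3 lay above 0 (0.18, 0.14 and 0.22) and Ephb4 stayed at -0.08, none of them called.

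Ligand and receptor of the ephrin-B2 and EphB4 pair moved side by side. The FPKM of Efnb2 over that of Ephb4 was 0.912 to 1.29 with IgG and 0.962 to 1.22 with anti-LIF, so the ratio overlapped while both genes lay lower. For ephrin-A1 over EphA2 the ratio was 0.250 to 0.782 with IgG and 0.301 to 0.421 with anti-LIF. Both genes of this pair are also known from endothelium, as are those of the first. Of 18 endothelial markers 16 were tested, with 2 called higher and 1 lower and a median log2 fold change of -0.54. Over all tested genes 32.2% were called in either direction. The sum over the list was 80.1 to 135 CPM with IgG and 128 to 161 CPM with anti-LIF. The defining marker Cdh5 was at 1.85 to 4.19 CPM in any library, and Erg and Sox18 stayed under 1 CPM. The part of endothelial cells in the values of these genes was not tested.

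**Figure D2:**
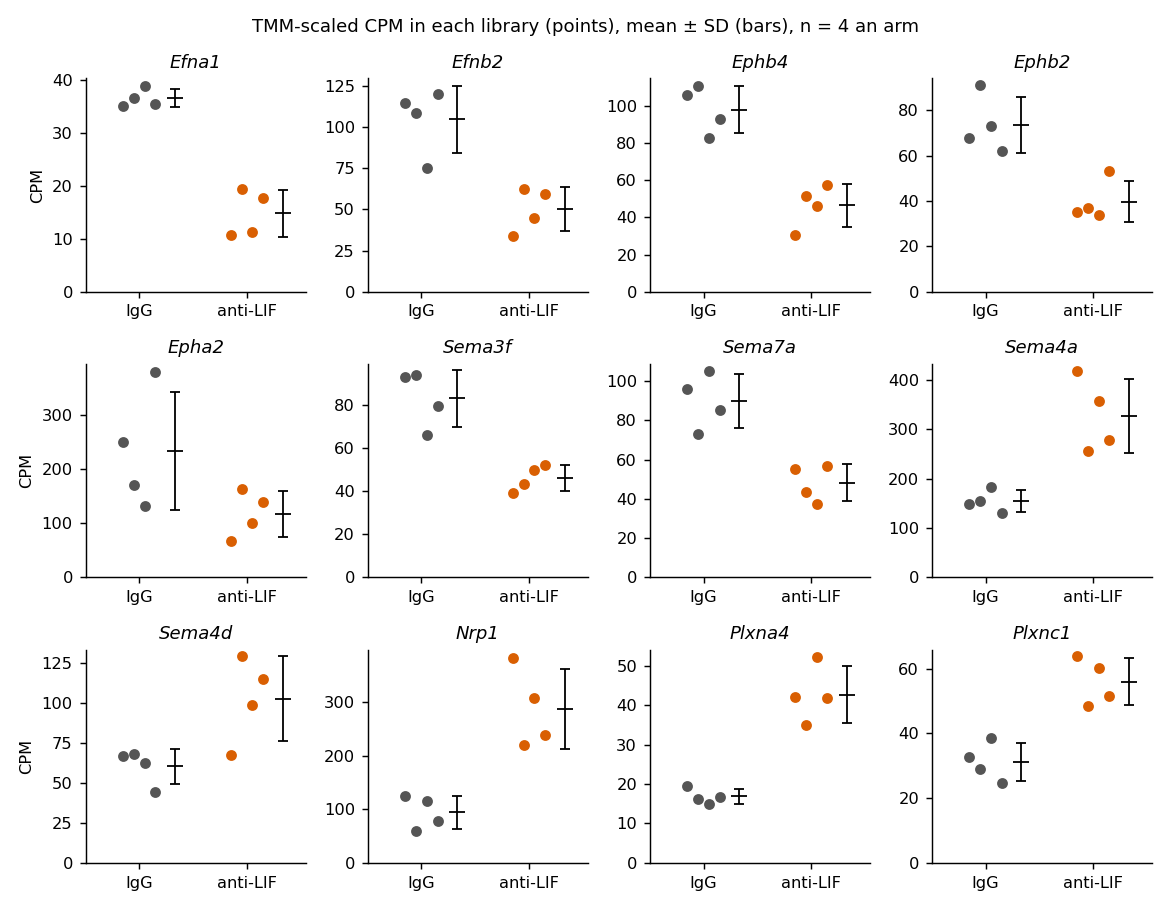
CPM (y axis, from 0) of 12 axon guidance genes in each library (points, IgG and anti-LIF, n = 4 each), with mean ± SD as bars. Efna1, Efnb2, Ephb4, Ephb2, Sema3f and Sema7a sit lower in every anti-LIF library than in any IgG library, Sema4a, Nrp1, Plxna4 and Plxnc1 sit higher in each, and Epha2 and Sema4d overlap. Under scaling to epithelial markers the estimates of Ephb2, Sema3f and Sema7a lie above 0, none of them called.

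Semaphorin FPKM overlapped between arms in sum while its make-up shifted. The sum was 156.6 to 176 with IgG and 159.5 to 178 with anti-LIF, a ratio of means of 0.998 (1.02 in CPM). Sema4a supplied 23.2% to 29.0% of that sum with IgG and 40.8% to 58.9% with anti-LIF. Sema7a went from 10.8% to 15.7% down to 5.11% to 8.16%, Sema3f from 9.66% to 13.8% down to 5.07% to 7.36%, and Sema3c from 6.66% to 13.8% down to 1.98% to 5.67%. None of these 4 shares overlapped between arms.

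**Figure D3:**
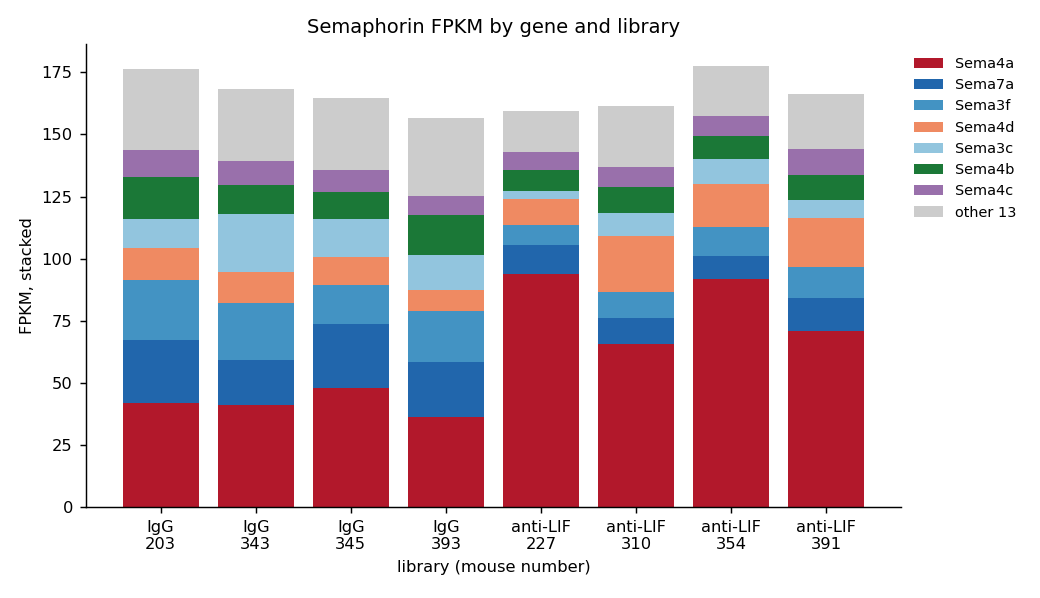
Stacked FPKM (y axis, from 0) of the semaphorin genes in each of the 8 libraries, the 7 most abundant by mean FPKM drawn separately and the rest summed in grey. The columns reach similar heights, 156.6 to 178 FPKM, while the Sema4a block grows from 36.3 to 47.9 FPKM with IgG to 65.8 to 93.9 FPKM with anti-LIF.

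Sema4a, a transmembrane semaphorin made by macrophages and dendritic cells and also by epithelia, was the most abundant semaphorin by FPKM. It was at 148, 155, 184 and 131 CPM with IgG and 418, 255, 358 and 278 CPM with anti-LIF. Every anti-LIF library exceeded every IgG library, antiLIF_227 the most (log2 fold change 1.08, SE 0.17, adjusted p = 0.00469). Sema4d, also known as CD100, a ligand of plexin-B1 carried by many leukocytes, was at 66.6, 67.8, 62.1 and 44.4 CPM with IgG and 67.6, 129, 98.7 and 115 CPM with anti-LIF. It rose (log2 fold change 0.77, SE 0.21, adjusted p = 0.0233), but antiLIF_227 lay inside the IgG range, unlike for Sema4a, and the call was lost without IgG_393 or antiLIF_391 (adjusted p up to 0.0537). Thus antiLIF_227, which had the highest myeloid sum, was the highest anti-LIF library for Sema4a and the lowest for Sema4d. The Sema4d call was also lost by library size alone (adjusted p = 0.0705) and on log2(FPKM + 1) (adjusted p = 0.0766).

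The other class 4 semaphorins did not rise. Sema4f, a little studied transmembrane member, showed the lowest log2 fold change of the semaphorins at -1.69 (SE 0.51, adjusted p = 0.0331), from 17.6, 16.1, 12.7 and 21.3 CPM to 0.958, 7.01, 4.20 and 8.80 CPM. The arms did not overlap, and antiLIF_227 was far below the rest. Its call was lost without IgG_203, IgG_343 or IgG_393 or antiLIF_354 (adjusted p up to 0.0829). Sema4b fell slightly, from 65.7 ± 11.1 to 49.3 ± 3.01 CPM (log2 fold change -0.41, SE 0.12, adjusted p = 0.0316), a call lost without IgG_203 or IgG_393 or antiLIF_227, antiLIF_354 or antiLIF_391 (adjusted p up to 0.0885). Sema4c was level, at 41.0 ± 5.42 and 40.8 ± 4.76 CPM. Sema4g was at 29.0 ± 2.25 and 16.6 ± 7.69 CPM and was not called (adjusted p = 0.0638), though DESeq2 called it (0.0299), as did the fit without antiLIF_310 (log2 fold change -1.12, adjusted p = 0.0116).

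Of the secreted class 3 semaphorins, 3 of 7 fell. Sema3f, a neuropilin-2 ligand known to repel vessels, was at 92.8, 93.8, 65.9 and 79.6 CPM with IgG and 39.0, 43.1, 49.9 and 52.0 CPM with anti-LIF. The arms were separate, and the SE was the smallest of the 3 (log2 fold change -0.85, SE 0.14, adjusted p = 0.00484). Sema3c, which binds both neuropilins, was at 66.9, 141, 93.5 and 83.3 CPM with IgG and 22.6, 56.8, 63.2 and 46.6 CPM with anti-LIF. It fell without overlap by a narrow margin (log2 fold change -1.03, SE 0.33, adjusted p = 0.0406) and lost its call without IgG_343, IgG_345 or IgG_393 or antiLIF_310 or antiLIF_391 (adjusted p up to 0.109). Sema3a, the founding repellent ligand of neuropilin-1, was low, at 3.40 ± 1.27 and 1.33 ± 0.628 CPM, and fell (log2 fold change -1.36, SE 0.39, adjusted p = 0.0303) with overlapping arms. Its call was lost without IgG_343 or IgG_393 or antiLIF_227, antiLIF_354 or antiLIF_391 (adjusted p up to 0.0796). Sema3e, the ligand of plexin-D1, was tight at 18.4 to 20.3 CPM with IgG and spread over 3.96 to 16.8 CPM with anti-LIF. The arms did not overlap, yet edgeR made no call (log2 fold change -0.86, adjusted p = 0.0827). DESeq2 called it (0.044), as did the fits without antiLIF_227 (0.0357) or antiLIF_310 (0.0301). Sema3b, Sema3d and Sema3g were not called (adjusted p 0.601, 0.294 and 0.156).

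Sema7a, a lipid-anchored semaphorin that signals through plexin-C1 and integrins, was at 95.9, 73.2, 105 and 85.3 CPM with IgG and 55.3, 43.5, 37.6 and 56.7 CPM with anti-LIF. It fell with separate arms and kept its call without any single library (log2 fold change -0.90, SE 0.16, adjusted p = 0.00581). Under scaling to epithelial markers Sema3f, Sema7a and Sema4b turned to 0.19, 0.17 and 0.64, whereas Sema3a, Sema3c and Sema4f stayed negative at -0.39, -0.04 and -0.79. Only Sema4b among these was called (adjusted p = 0.0128). Among the class 5 and 6 genes Sema5a, Sema6a, Sema6b, Sema6c and Sema6d were tested and none was called, with log2 fold changes from -0.71 (Sema6c) to 0.25 (Sema6b), and Sema5b was too low to test.

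Plexins, the signalling receptors for semaphorins, moved in both directions, with 4 of 9 higher, 2 lower and a median log2 fold change of 0.53. Plxna4, a co-receptor for class 3 and class 6 semaphorins, was at 19.5, 16.3, 14.99 and 16.8 CPM with IgG and 42.0, 34.9, 52.2 and 41.7 CPM with anti-LIF. Its lowest anti-LIF library was well above its highest IgG library (log2 fold change 1.34, SE 0.14, adjusted p = 0.00235). Plxna2, a paralogue with overlapping ligands, went the other way, from 30.0, 33.1, 26.8 and 43.6 CPM to 10.9, 21.2, 17.0 and 20.1 CPM (log2 fold change -0.95, SE 0.22, adjusted p = 0.0144). Again the arms did not overlap. Within a library, Plxna4 FPKM over Plxna2 FPKM was 0.337 to 0.570 with IgG and 1.44 to 3.37 with anti-LIF, so the more abundant of the pair changed. A difference in this ratio follows from the 2 opposite calls and is no further evidence. Every ratio of 1 gene to another given in these results was chosen after the values were seen.

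Plxna4os1, an antisense RNA at chr6:32511141-32515576, lies inside Plxna4 (chr6:32144557-32588192) on the opposite strand. It was at 4.30, 1.04, 2.23 and 3.89 CPM with IgG and 17.6, 8.08, 10.8 and 9.13 CPM with anti-LIF (log2 fold change 1.99, SE 0.43, adjusted p = 0.0103). No source used here says whether counting used strand, and whether exons of the 2 genes overlap was not examined. Whether reads of one were also counted for the other is therefore unknown.

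Plxnc1, the receptor of Sema7a and known from myeloid cells, rose while its ligand fell: 32.6, 28.9, 38.5 and 24.8 CPM with IgG against 63.9, 48.3, 60.1 and 51.6 CPM with anti-LIF (log2 fold change 0.84, SE 0.15, adjusted p = 0.00567). The arms of both genes were separate, in opposite directions. Plxna1, which pairs with neuropilins, rose from 213 to 228 CPM with IgG to 241 to 399 CPM with anti-LIF (log2 fold change 0.49, SE 0.14, adjusted p = 0.0312). That call was lost without any 1 of the 4 IgG mice or antiLIF_354 (adjusted p up to 0.0739), and by library size alone (0.0558) or on log2(FPKM + 1) (0.0554). Plxnb3 was low, at 5.84 ± 1.27 and 9.93 ± 2.79 CPM, and rose with overlapping arms (log2 fold change 0.76, SE 0.24, adjusted p = 0.0394). It lost its call without IgG_203, IgG_343 or IgG_393 or antiLIF_227 or antiLIF_391 (adjusted p up to 0.101), and by library size alone (0.0726) or on log2(FPKM + 1) (0.0941).

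Plxnb1, the receptor of Sema4D, fell while that ligand rose. It was at 123, 137, 111 and 95.4 CPM with IgG and 53.2, 67.6, 76.9 and 89.3 CPM with anti-LIF, with antiLIF_391 just under the lowest IgG library (log2 fold change -0.70, SE 0.17, adjusted p = 0.0153). Plxnb2, the most abundant plexin by FPKM and a receptor for several class 4 semaphorins, was at 389, 246, 309 and 345.1 CPM with IgG and 624, 349, 472 and 416 CPM with anti-LIF. The arms overlapped and it was not called (log2 fold change 0.53, SE 0.20, adjusted p = 0.0704), though DESeq2 called it (0.0366), as did the fit without antiLIF_310 (0.0378). Plxnb2 FPKM over Plxnb1 FPKM was at most 4.83 with IgG and 6.22 to 15.7 with anti-LIF. The highest ratio was that of antiLIF_227, which also had the highest myeloid sum, and the next, 8.20, that of antiLIF_354. By mean log2 CPM of the myeloid markers antiLIF_227 was highest (9.62) and antiLIF_354 lowest of the arm (9.10). Any link between ratio and myeloid level was not tested.

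Plxnd1, a receptor known from endothelium and macrophages, was at 216, 143, 155 and 117 CPM with IgG and 585, 198, 365 and 184 CPM with anti-LIF. Libraries antiLIF_310 and antiLIF_391 fell within the IgG range and antiLIF_227 lay far above it, and the gene was not called (log2 fold change 1.08, SE 0.37, adjusted p = 0.0538). DESeq2 called it (0.0121), as did the fits without antiLIF_310 (0.0342) or antiLIF_391 (0.0316). Without antiLIF_227 the log2 fold change was 0.66 (adjusted p = 0.107). Plxna3 was at 22.7 ± 6.34 and 28.6 ± 2.46 CPM (adjusted p = 0.217). Under scaling to epithelial markers Plxna2 and Plxnb1 turned to 0.04 and 0.32, neither of them called, and the 4 higher plexins kept their direction.

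Both neuropilins rose. Nrp1, the binding receptor for Sema3A and for a form of VEGF, was at 124, 59.2, 115 and 79.0 CPM with IgG and 382, 220.2, 308 and 238 CPM with anti-LIF. The lowest anti-LIF library was far above the highest IgG library, and the mean was 3.04 times higher (log2 fold change 1.60, SE 0.26, adjusted p = 0.00485). Nrp2, which binds Sema3F and VEGF-C, was at 107, 94.7, 93.6 and 122 CPM with IgG and 189, 153, 142 and 123 CPM with anti-LIF. It rose less (log2 fold change 0.54, SE 0.14, adjusted p = 0.0223), with the highest IgG and lowest anti-LIF library nearly equal, and its call was lost without IgG_343 or IgG_345 (adjusted p up to 0.0644) and on log2(FPKM + 1) (0.0518). In FPKM Nrp1 made up 41.5% to 58.2% of the neuropilin sum with IgG and 62.0% to 71.2% with anti-LIF. Both kept their direction under scaling to epithelial markers (2.73 and 1.64).

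Of the class 3 ligands, Sema3a, Sema3c and Sema3f were called lower, and Sema3b, Sema3d, Sema3e and Sema3g were not called. Of their receptors, Nrp1, Nrp2, Plxna1 and Plxna4 were called higher, Plxna2 was called lower like the ligands, and Plxna3 was not called. Sema7a was lower and Plxnc1 higher, and Sema4d was higher and Plxnb1 lower. Nrp1, Plxnc1, Plxnd1, Sema4a and Sema4d are all known from macrophages or other leukocytes. This set was not fixed in advance, and Plxnd1 was not called. Nrp2, Plxna1, Plxna4, Plxna4os1 and Plxnb3, also called higher, are not in it. Of 25 myeloid markers 17 were called higher, beside 15.7% of all tested genes, with a median log2 fold change of 0.86. Csf1r, which encodes the receptor for the macrophage growth factor, was at 775 to 1106 CPM with IgG and 1968 to 4019 CPM with anti-LIF. Of 25 epithelial markers 21 were called lower, beside 16.5% of all tested genes, with a median of -0.91. The median over the 16 tested ephrins and Eph receptors was -0.87. The part of either shift in these results was not tested.

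**Figure D4:**
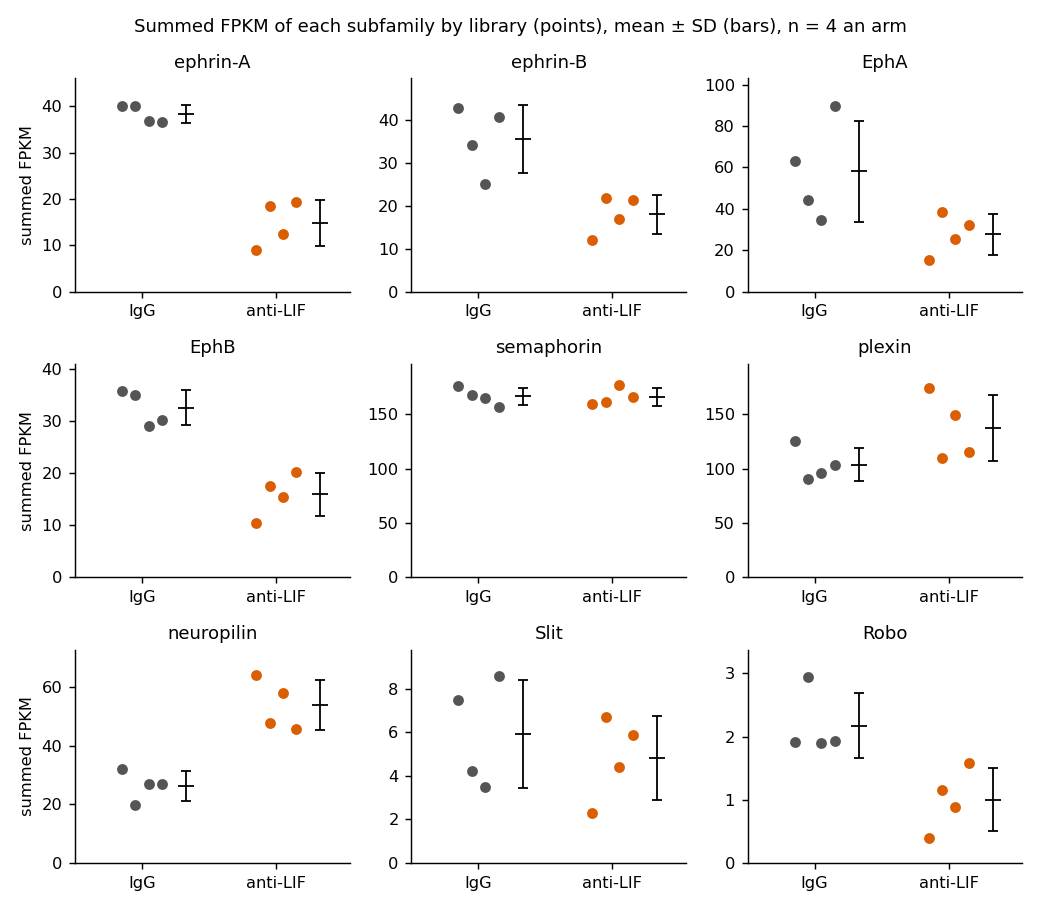
Summed FPKM (y axis, from 0) of each subfamily in each library (points; bars are mean ± SD, n = 4 an arm). Ephrin-A, ephrin-B, EphB and Robo sums lie lower in every anti-LIF library, neuropilin sums lie higher in each (45.7 to 63.9 against 19.7 to 32.1 FPKM), and EphA, plexin, semaphorin and Slit sums overlap. FPKM is not TMM scaled. The Robo sum is mostly Robo1, which overlaps between arms in CPM, and no Robo was called. In CPM the Robo sums are close, at 14.4 in antiLIF_391 and 14.9 in IgG_203.

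No Slit or Robo passed the threshold in edgeR. Slit2, a secreted ligand, was at 26.8, 34.7, 21.9 and 26.0 CPM with IgG and 13.8, 29.0, 19.8 and 25.5 CPM with anti-LIF, overlapping (log2 fold change -0.31, SE 0.23, adjusted p = 0.323). Slit3, the most abundant Slit by FPKM, spread over 7.03 to 35.7 CPM with IgG and 7.02 to 26.0 CPM with anti-LIF (adjusted p = 0.89), and its sign changed when 1 library was left out, to 0.05 without IgG_203, 0.35 without IgG_393 and 0.15 without antiLIF_227. Slit1 was near 2 CPM in both arms (adjusted p = 0.971). Robo1, the Robo with most transcript here, was at 12.6, 25.8, 15.1 and 14.4 CPM with IgG and 3.83, 9.28, 7.48 and 13.0 CPM with anti-LIF. Library antiLIF_391 overlapped the IgG range, and edgeR did not call the difference (log2 fold change -1.02, SE 0.36, adjusted p = 0.058). DESeq2 called it (0.0216), as did limma-voom (0.0448) and the fit without antiLIF_391 (0.0317). Robo4, known from endothelium, was at 1.09 ± 0.508 and 0.476 ± 0.289 CPM (adjusted p = 0.0936), and Robo2 and Robo3 were too low to test.

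Other guidance genes and the effectors inside the cell were read from 4 fixed lists. Of 16 genes of the netrin system 12 were tested, with 2 higher and 2 lower, close to the 32.2% called among all tested genes, the share against which the counts of the other lists stand too. Neo1, which encodes the receptor neogenin, fell from 85.7 to 121 CPM with IgG to 33.5 to 62.0 CPM with anti-LIF (log2 fold change -1.06, SE 0.19, adjusted p = 0.00584), and Ntng2, which encodes netrin-G2, rose from 7.24 to 11.9 CPM to 15.6 to 30.7 CPM (log2 fold change 1.21, adjusted p = 0.0084). Of 24 tested plexin effectors 4 rose and 8 fell. Fes, a tyrosine kinase found in myeloid cells, rose by 0.85 on the log2 scale (SE 0.14, adjusted p = 0.00485), and Rnd2, a small GTPase, fell by 0.99 (SE 0.18, adjusted p = 0.00599).

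Of 20 tested Eph effectors 4 rose and 5 fell, beside 32.2% of all tested genes called in either direction. The guanine nucleotide exchange factor Vav3 was at 13.0 to 22.3 CPM with IgG and 31.0 to 43.6 CPM with anti-LIF (log2 fold change 1.05, adjusted p = 0.00485), and the adaptor Nck2 at 46.4 to 65.6 and 20.5 to 30.7 CPM (log2 fold change -0.95, adjusted p = 0.00514). Of 15 Slit and Robo effectors 4 rose and 4 fell, beside the same 32.2%. The strongest evidence in each direction came from a pair of paralogues that act downstream of Robo receptors. Srgap1 was at 38.1, 49.4, 34.8 and 46.6 CPM with IgG and 11.2, 18.1, 13.0 and 20.8 CPM with anti-LIF (log2 fold change -1.42, SE 0.21, adjusted p = 0.00408). Srgap2 was at 74.7, 76.8, 80.5 and 74.0 CPM and 159, 112, 127 and 129.9 CPM (log2 fold change 0.79, SE 0.11, adjusted p = 0.00362). Neither overlapped between arms. Within a library Srgap2 FPKM over Srgap1 FPKM was 1.51 to 2.24 with IgG and 5.98 to 13.8 with anti-LIF. As the 2 genes were picked for their opposite calls, that ratio had to differ and adds no evidence. The list medians were -0.29, -0.12, 0.07 and -0.03 for the netrin, plexin, Eph and Slit-Robo lists.

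Of the other cell types that could carry guidance genes, 15 Schwann cell and neural markers summed to 239 to 284 CPM with IgG and 112 to 178 CPM with anti-LIF. Of these, 12 were tested, with 1 higher, 4 lower and a median log2 fold change of -0.86. The defining markers Sox10, Gfap and Elavl3 stayed under 1 CPM in every library. Over all tested genes 15.7% were called higher and 16.5% lower, the shares against which the counts of the lymphoid and acinar lists stand too. Among fibroblast and pericyte markers 3 of 17 were called higher, beside 15.7% of all tested genes, with overlapping sums of 291 to 971 and 344 to 1102 CPM. Lymphoid markers summed to 25.3 to 52.6 and 78.5 to 101 CPM, with 5 of 11 tested called higher, 0 lower and a median log2 fold change of 1.32. Acinar markers, which many digestive enzymes make up, summed to 446 to 2290 and 3597 to 19495 CPM. Of 19 tested acinar markers 15 were called higher and 0 lower, with a median of 3.17, the largest of the cell type lists. The part of any of these in the results was not tested.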

How the data were processed

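Poly(A) RNA of 8 libraries was sequenced. Per the submitters' processing notes, the authors used FastQC 0.11.2, STAR 2.4.0k, HOMER, edgeR 3.6.8 and the build mm10. Per the file headers, the authors counted exon reads with HOMER, 1 transcript per gene, and deposited raw counts and FPKM. No source used here gives the strand setting or the annotation version. The deposited FPKM equalled count over transcript length and header total (largest deviation 0.000499, tolerance 0.002) for the 46 of 61 genes whose transcript is the same in both tables; for the other 15 the tables hold different transcripts.

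Counts were tested in R 4.3.3 with edgeR 4.0.16 (filterByExpr defaults, TMM, quasi-likelihood test, Benjamini-Hochberg over 14711 genes, threshold 0.05), with the arm as the only term. DESeq2 1.42.0, limma 3.58.1 (voom, and trend on log2(FPKM + 1) and log2(FPKM + 0.1)), other scalings and filters, a myeloid score as covariate and leaving out each library were alternatives. The fit was tested on simulated data. Reads carry no molecular identifiers. The labels name separate mice but no batch or litter.

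The genes and lists were chosen with earlier results of these data known. Named were genes past the threshold, the most abundant of each subfamily, their textbook partners and, per effector list, the lowest p in each direction; others were named after their values were seen. Lists of markers are summed in CPM. Promoter sequences are from RefSeq (GRCm38.p6). One allele that all mice share is not reported here.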

Additional observations from a re-analysis of the deposited data

Results flagged for a closer look

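The Ephb2 level of antiLIF_391, 53.2 CPM, stood apart from the other libraries of its arm, which were at 33.8 to 36.8 CPM. Its gap to the nearest of them was 0.846 of the range of the arm, above Dixon's critical value for 4 samples. It was the only such value among 70 arms of genes examined, and chance gives about 1 in 20.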

How the results depend on the processing

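The 9 higher and 18 lower calls became 9 and 18 with RLE factors and without a filter, 9 and 17 at 1 CPM in 4 libraries, 6 and 20 by library size alone, 11 and 23 with DESeq2, 9 and 21 with limma-voom, 5 and 20 on log2(FPKM + 1) and 5 and 19 on log2(FPKM + 0.1). The median of all genes moved to -0.16 by library size alone and to -0.11 and -0.13 on the FPKM scales. Leaving out 1 library gave 6 to 11 higher and 12 to 19 lower, and 16 of the 27 calls held in all 8 such fits. Scaling to epithelial markers gave 21 higher and 0 lower. It reversed the sign of Efna5 (0.0033), Efnb1 (0.41), Epha1 (0.18), Ephb2 (0.14), Ephb3 (0.22), Plxna2 (0.041), Plxnb1 (0.32), Sema3e (0.089), Sema3f (0.19), Sema4b (0.64), Sema4g (0.16), Sema7a (0.17), Slit2 (0.68) and Slit3 (0.83). Of these only Sema4b and Slit2 had an adjusted p under 0.05, so the others do not establish a change of direction. The SE was 0.24 for Efna5 and 0.21 for Plxna2 and Ephb2. With the myeloid score as a covariate, edgeR called 0 higher and 0 lower genes here (1 and 2 at an unadjusted p under 0.05) and 0 of all 14711; the score did not overlap between arms (8.11 to 8.54 and 9.10 to 9.62), so arm and score cannot be told apart in that fit. Its estimates reversed in sign for Efna5 (0.81), Epha2 (0.58), Plxna2 (0.35), Plxnb2 (-0.38), Plxnb3 (-0.79), Plxnd1 (-0.38), Robo1 (0.83), Sema3a (0.71), Sema3c (1.11), Sema3e (0.65), Sema4f (0.44), Slit2 (1.00) and Slit3 (1.58). None of these was called, and the SE was 1.17 for Epha2 and 0.76 for Efna5. Slit3 also reversed with limma-voom (0.030), without IgG_203 (0.05), IgG_393 (0.35) or antiLIF_227 (0.15), in a range from -0.40 (without IgG_343) to 0.35 over the fits without 1 library, and without IgG_393 and antiLIF_227 (0.63). For all of these the cause was not tested. No paired analysis was possible because the arms share no mouse number. With 4 libraries an arm, the filter asked for 0.589 CPM, so the lowest genes could not be tested.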
